A study of Mus musculus with 96 samples.

Results

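Cathepsins are the proteases of the lysosome, and 8 of their genes were described here across all 96 brain libraries of the series: Ctsa, Ctsb, Ctsd, Ctsf, Ctsh, Ctsl, Ctss and Ctsz. The members were chosen by name, as 8 of the 35486 gene symbols of the count table. The study asked how injections of plasma from young mice change gene expression in the old brain, and whether regions differ in this. Bulk mRNA was sequenced from male C57BL/6J mice, in the cerebellum, hippocampus and cortex of 29 mice in a first experiment and in the hippocampus of 9 further mice in a second. In the first experiment, 22-month mice received 7 daily injections of young plasma (3 mice) or of PBS, the saline vehicle (3 mice), and 18-month mice the same injections of plasma (5 mice) or PBS (4 mice). Mice of 19 months received 24 daily injections of plasma (3 mice, called long plasma here) or PBS (4 mice, long PBS). Naive mice, which had no injection, were 18 months (3 mice) or 2 months old (4 mice). For the young group, labels give an age of 2 months and the series' design text 3 months. In the second, 18-month mice had 7 injections, of plasma in 5 mice and of PBS in 4. Each library came from tissue of a single mouse, so replicates are separate animals.

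Cathepsins are made as inactive precursors, sorted to the lysosome and cut to their mature form in its acid interior. Most are cysteine proteases, while Ctsd is an aspartic protease and Ctsa a serine carboxypeptidase. In the brain they degrade proteins in neurons and glia, and Ctss is known as an enzyme of microglia and other antigen-presenting cells. The known lysosomal gene programme runs through TFEB and its relatives, which bind E-box letters in promoters.

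The table held 23 rows named as cathepsins. All 8 members had counts in all 96 libraries and passed the filter on low counts in every fit. Levels are in CPM, each count divided by its library's total and multiplied by 1000000. Of the other rows, the median level was 38.2 CPM for Ctso, 9.14 for Ctsc, 2.21 for Ctsk and 0.483 for Ctsw. Ctse was counted in 16 libraries and Ctsg in 1, and 9 rows were at 0 in every library. In the GENCODE M21 annotation of GRCm38, Ctss lies on chromosome 3 from 95526786 to 95556403, Ctsz on chromosome 2 from 174427493 to 174439039, Ctsd on chromosome 7 from 142375911 to 142388038 and Ctsf on chromosome 19 from 4855130 to 4860918. Ctsa lies on chromosome 2 from 164832873 to 164841032, Ctsb on chromosome 14 from 63122462 to 63145923, Ctsh on chromosome 9 from 90054152 to 90076089 and Ctsl on chromosome 13 from 64359337 to 64370890. The libraries do not mark strand, so reads from overlapping genes cannot be told apart. Of the exonic bases of Ctsd, 34.4% are shared with Gm49369, a gene model on the same strand. Of those of Ctsl, 26.8% are shared with the antisense gene Gm47123 and 6.09% with the pseudogene Gm49230. Ctsb shares 12.8% with Fdft1, Ctsa shares 10.5% with Pltp and 6.87% with Neurl2, and Ctsz shares 0.694% with Nelfcd.

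Promoter windows (250 bases before to 50 after the gene start, RefSeq, GRCm38.p6) matched 6 of the 8 members, with 7 windows in all; Ctsb and Ctsh had none. The windows of the 3 members that differed most with age and of Ctsf, the member higher in the cerebellum by the widest margin, are shown 5′ to 3′ on the strand of the gene. They lie at chr3:95526536-95526835 on the plus strand (Ctss), chr2:174438990-174439289 on the minus strand (Ctsz), chr7:142387778-142388077 on the minus strand (Ctsd) and chr19:4854915-4855214 on the plus strand (Ctsf). Capitals mark matches to the motifs given in the next paragraph.
Ctss: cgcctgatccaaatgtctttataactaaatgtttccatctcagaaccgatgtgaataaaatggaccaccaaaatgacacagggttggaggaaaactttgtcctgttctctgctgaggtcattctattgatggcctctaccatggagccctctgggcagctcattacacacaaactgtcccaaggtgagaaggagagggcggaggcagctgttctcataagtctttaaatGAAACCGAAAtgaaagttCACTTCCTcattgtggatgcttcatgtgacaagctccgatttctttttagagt
Ctsz: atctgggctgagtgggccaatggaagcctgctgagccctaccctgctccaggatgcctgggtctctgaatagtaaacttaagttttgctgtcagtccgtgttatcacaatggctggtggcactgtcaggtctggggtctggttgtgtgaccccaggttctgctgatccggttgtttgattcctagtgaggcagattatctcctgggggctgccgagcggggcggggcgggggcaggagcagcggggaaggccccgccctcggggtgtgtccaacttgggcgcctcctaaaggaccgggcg
Ctsd: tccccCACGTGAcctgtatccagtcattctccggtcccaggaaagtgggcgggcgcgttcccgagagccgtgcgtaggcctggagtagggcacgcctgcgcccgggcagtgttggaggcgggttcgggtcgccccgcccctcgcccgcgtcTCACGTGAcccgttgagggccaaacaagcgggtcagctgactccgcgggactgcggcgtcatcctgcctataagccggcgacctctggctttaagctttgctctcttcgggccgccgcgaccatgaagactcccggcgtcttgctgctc
Ctsf: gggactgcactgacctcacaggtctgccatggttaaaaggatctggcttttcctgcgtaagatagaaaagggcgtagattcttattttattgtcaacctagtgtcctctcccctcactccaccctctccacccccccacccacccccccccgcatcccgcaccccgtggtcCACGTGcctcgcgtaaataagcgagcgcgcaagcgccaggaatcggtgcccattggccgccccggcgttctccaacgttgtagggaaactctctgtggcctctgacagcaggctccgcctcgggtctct

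The motifs were chosen after the promoters had been read, and matches on either strand were counted. The E-box CACGTG was found in the windows of 4 members: Ctsd, with matches at -245 and -98 relative to the start, Ctsf at -79, Ctsl at -236 and Ctsa at -12 and 5. The Ctsa matches are all in its second window (chr2:164833523-164833822), which lies inside the gene. Its first window (chr2:164832622-164832921), at the annotated gene start, held none of the 5 motifs. Positions are relative to the RefSeq start, which can differ from the GENCODE start. The Ctsl window (chr13:64370471-64370770, minus strand) also lies inside the GENCODE gene, as does most of the Ctsd window with its match at -98. The longer TCACGTG, which contains the E-box, was found in 2 members, Ctsd and Ctsa, and the full CLEAR element, a palindrome that contains TCACGTG, in 0. Ctss held no E-box, but a repeat of GAAA after any 2 bases, a spacing found in interferon response elements, with GAAACCGAAA at -21, and the ETS-type motif AGGAAGTG, present as CACTTCCT at -3. Ctsz held none of the 5 motifs. Over all 32851 windows of the same length, 7.15% held CACGTG, 3.77% TCACGTG, 0.326% the full CLEAR element, 4.07% AGGAAGTG and 3.44% the GAAA repeat. The matches are a description of the letters in these windows.

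Depth ran from 851288 to 23768385 counts per library, with a median of 6434791 in the cerebellum and 12287626 in the cortex, and 7 libraries held fewer than 2500000 counts. In 9 libraries, 6 of hippocampus and 3 of cortex, markers of neurons typical for the labelled region were unusually low. Over the 10 monocyte and neutrophil markers of the blood, median levels ran from 0 to 1.06 CPM in the cerebellum (S100a8 highest), from 0 to 0.311 in the hippocampus and from 0 to 0.198 in the cortex, with Plac8, Retnlg and Chil3 at 0 in all 3 regions. A second number in the sample titles, which the labels do not explain, differs between the ages, between PBS and naive mice and between long plasma and long PBS mice, so it cannot be told apart from those comparisons. Plasma and PBS mice of the first experiment share it only in part: 2 of 5 plasma mice share theirs with 1 of 4 PBS mice at 18 months, and 3 of 3 share theirs with 1 of 3 PBS mice at 22 months. In the second experiment all 9 mice share it.

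In the young naive mice, the order of the cathepsins was much the same in the 3 regions when counts were set per kb of exon. The order depends on the length used, here that of all annotated exons merged, from 1358 bases for Ctss to 6489 for Ctsl. In plain CPM, Ctsb was above Ctsd (718 against 281 in the cerebellum) and Ctsl above Ctss (72.1 against 42.0 in the cortex). Ctsd and Ctsb, the main aspartic and cysteine proteases of the lysosome, were far above the rest. In the cerebellum, Ctsd had 119 ± 8.28 and Ctsb 119 ± 2.33 CPM per kb (SD, n = 4), which did not differ beyond their spread. In the hippocampus, Ctsd had 145 ± 9.17 and Ctsb 96.0 ± 5.59 CPM per kb, and in the cortex 145 ± 12.3 and 116 ± 10.5 (SD, n = 4). Ctss came next in the hippocampus and cortex, with 31.3 ± 4.32 and 30.9 ± 3.45 CPM per kb, but stood at 12.5 ± 1.53 in the cerebellum, second lowest of the 8. Ctsa, which also guards the enzymes beta-galactosidase and neuraminidase, and Ctsz, a carboxypeptidase, had between 22.7 and 27.1 CPM per kb in every region. Ctsf and Ctsl, both cysteine endopeptidases, lay between 10.8 and 21.0, and Ctsh, an aminopeptidase, was lowest with 2.18 to 3.20 CPM per kb. The plot of levels in young mice shows these values.

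**Figure D1:**
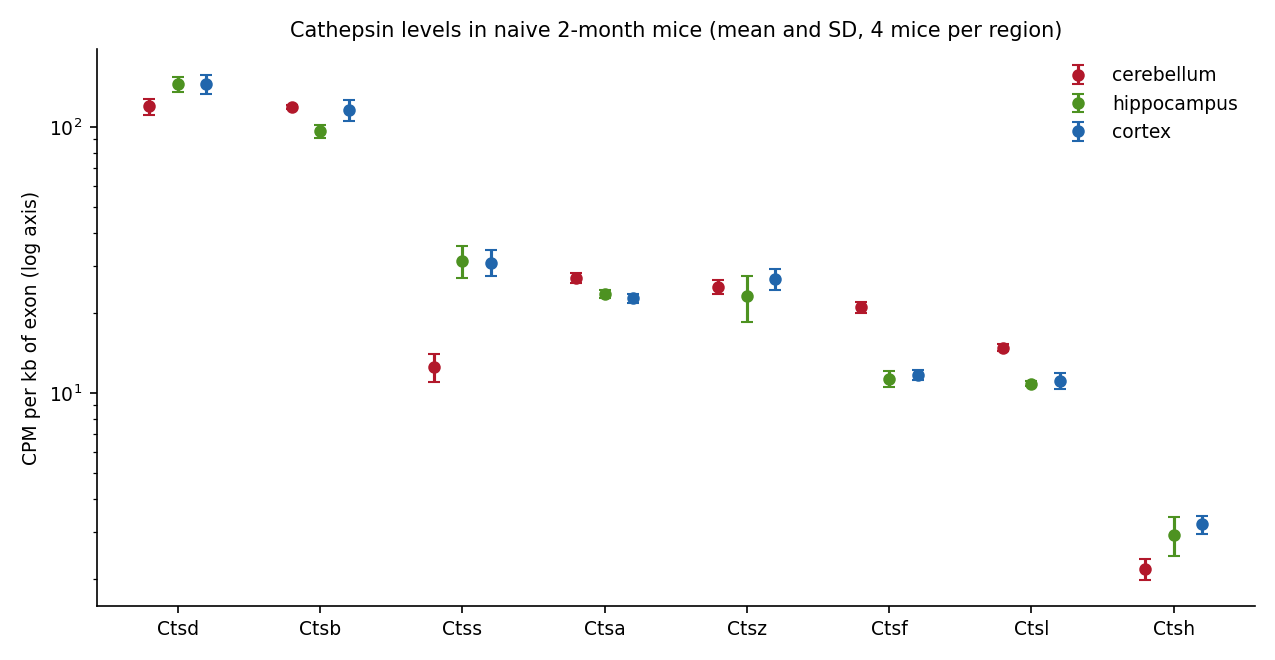
Levels of the 8 cathepsins in naive 2-month mice, as CPM per kb of exon on a log axis; points are means and bars the SD of 4 mice per region. Ctsd and Ctsb lie near or above 100 in every region, and Ctss in the cerebellum (12.5) lies below Ctss in the hippocampus (31.3) and cortex (30.9).

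By size, the young cerebellum differed from the other regions most in Ctss, Ctsf and Ctsh. Ctss had 14.0, 17.9, 18.7 and 17.4 CPM in the young cerebellum, against 42.3, 45.4, 35.2 and 44.9 CPM in the young cortex. The ranges did not overlap. The cerebellum-to-cortex difference was -1.46 ± 0.14 on the log2 scale (SE), or 0.362-fold, with an adjusted p of 1.19e-14 in edgeR's quasi-likelihood test (Benjamini-Hochberg over all genes). Ctsf went the other way, with 111, 101, 109 and 102 CPM in the cerebellum, against 62.4, 58.0, 57.6 and 56.8 CPM in the cortex. Its ranges did not overlap either, and the log2 difference was 0.70 ± 0.07 (adjusted p = 1.05e-13). Ctsl was higher by 0.27 ± 0.07, while Ctsh and Ctsd were lower by log2 differences of -0.70 ± 0.16 and -0.42 ± 0.09. In all, 5 of 8 members passed the threshold of 0.05 between cerebellum and cortex, where 59.2% of all genes did, so the count is near the background.

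Between cerebellum and hippocampus 6 of 8 members passed, again beside 59.2% of all genes. Ctss was lower in the cerebellum by a log2 difference of -1.43 ± 0.14, Ctsh by -0.56 ± 0.16 and Ctsd by -0.41 ± 0.09. Ctsf was higher by 0.77 ± 0.07, Ctsl by 0.31 ± 0.07 and Ctsb by 0.17 ± 0.07 (adjusted p = 0.0333, and 0.0785 in DESeq2). The hippocampus and cortex were closer: 1 of 8 members passed, beside 12.5% of all genes. This was Ctsb, with 611, 609, 557 and 547 CPM in the hippocampus, against 712, 609, 746 and 740 CPM in the cortex. The ranges overlapped through a single cortex library, and the log2 difference was -0.28 ± 0.07 (adjusted p = 0.00286). That library, replicate 14, had low markers of neurons of its labelled region, as had hippocampus replicates 14 and 20. Between cerebellum and cortex, 14 of 14 tested homeostatic microglia markers were lower in the cerebellum and passed, with a median log2 difference of -2.00. Of 9 tested TFEB family regulators, 6 passed as higher in the cerebellum, among them Tfeb itself (1.14 ± 0.16) and Fnip2 (1.45 ± 0.15), while 13 of 17 V-ATPase subunits, which acidify the lysosome, passed as lower. Of all genes, 28.6% passed as higher in the cerebellum than in the cortex and 30.6% as lower. Cst3, the secreted cathepsin inhibitor cystatin C, was lower in the cerebellum by a log2 difference of -1.74 ± 0.12. The part of cell type makeup in these differences was not tested.

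Age was compared in naive mice of 18 and 2 months. In the cerebellum, Ctss, Ctsz and Ctsd were higher in the older mice, by 2.69-fold, 1.70-fold and 1.35-fold, and no member passed as lower. Ctss had 45.2, 51.6 and 40.7 CPM at 18 months (45.8 ± 5.47, SD, n = 3), against 14.0, 17.9, 18.7 and 17.4 CPM at 2 months (17.0 ± 2.08, SD, n = 4). The older group lay entirely above the younger. The log2 fold change was 1.43 ± 0.15 (SE; adjusted p = 4.54e-07). Ctsz had 65.1, 64.1 and 57.2 CPM at 18 months, against 33.2, 37.6, 35.2 and 37.8 CPM at 2 months. These groups did not overlap, and the log2 fold change was 0.77 ± 0.10 (adjusted p = 2.25e-05). Ctsd had 385, 406 and 369 CPM at 18 months, against 260, 304, 271 and 289 CPM at 2 months, again without overlap. Its log2 fold change was 0.43 ± 0.07 (adjusted p = 0.000563).

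These 3 of 8 members stood beside 1.33% of all genes that passed as higher in the cerebellum, 1.06% that passed as lower and 2.39% in either direction. The groups did not overlap for 5 of 8 members, against 13.6% of all genes: besides the 3 above these were Ctsh and Ctsl. Ctsh had 13.2, 14.5 and 12.4 CPM at 18 months, against 9.61, 10.6, 10.4 and 8.57 CPM at 2 months, with a log2 fold change of 0.43 ± 0.16 that did not pass (adjusted p = 0.182, edgeR). Ctsl had a log2 fold change of 0.12 ± 0.06 (adjusted p = 0.373). Ctsf, Ctsb and Ctsa had log2 fold changes of 0.03 ± 0.08, 0.00 ± 0.06 and -0.01 ± 0.07, with 95% intervals inside -0.14 to 0.18. The median over the 8 members was 0.27, against 0.01 over all genes tested.

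**Figure D2:**
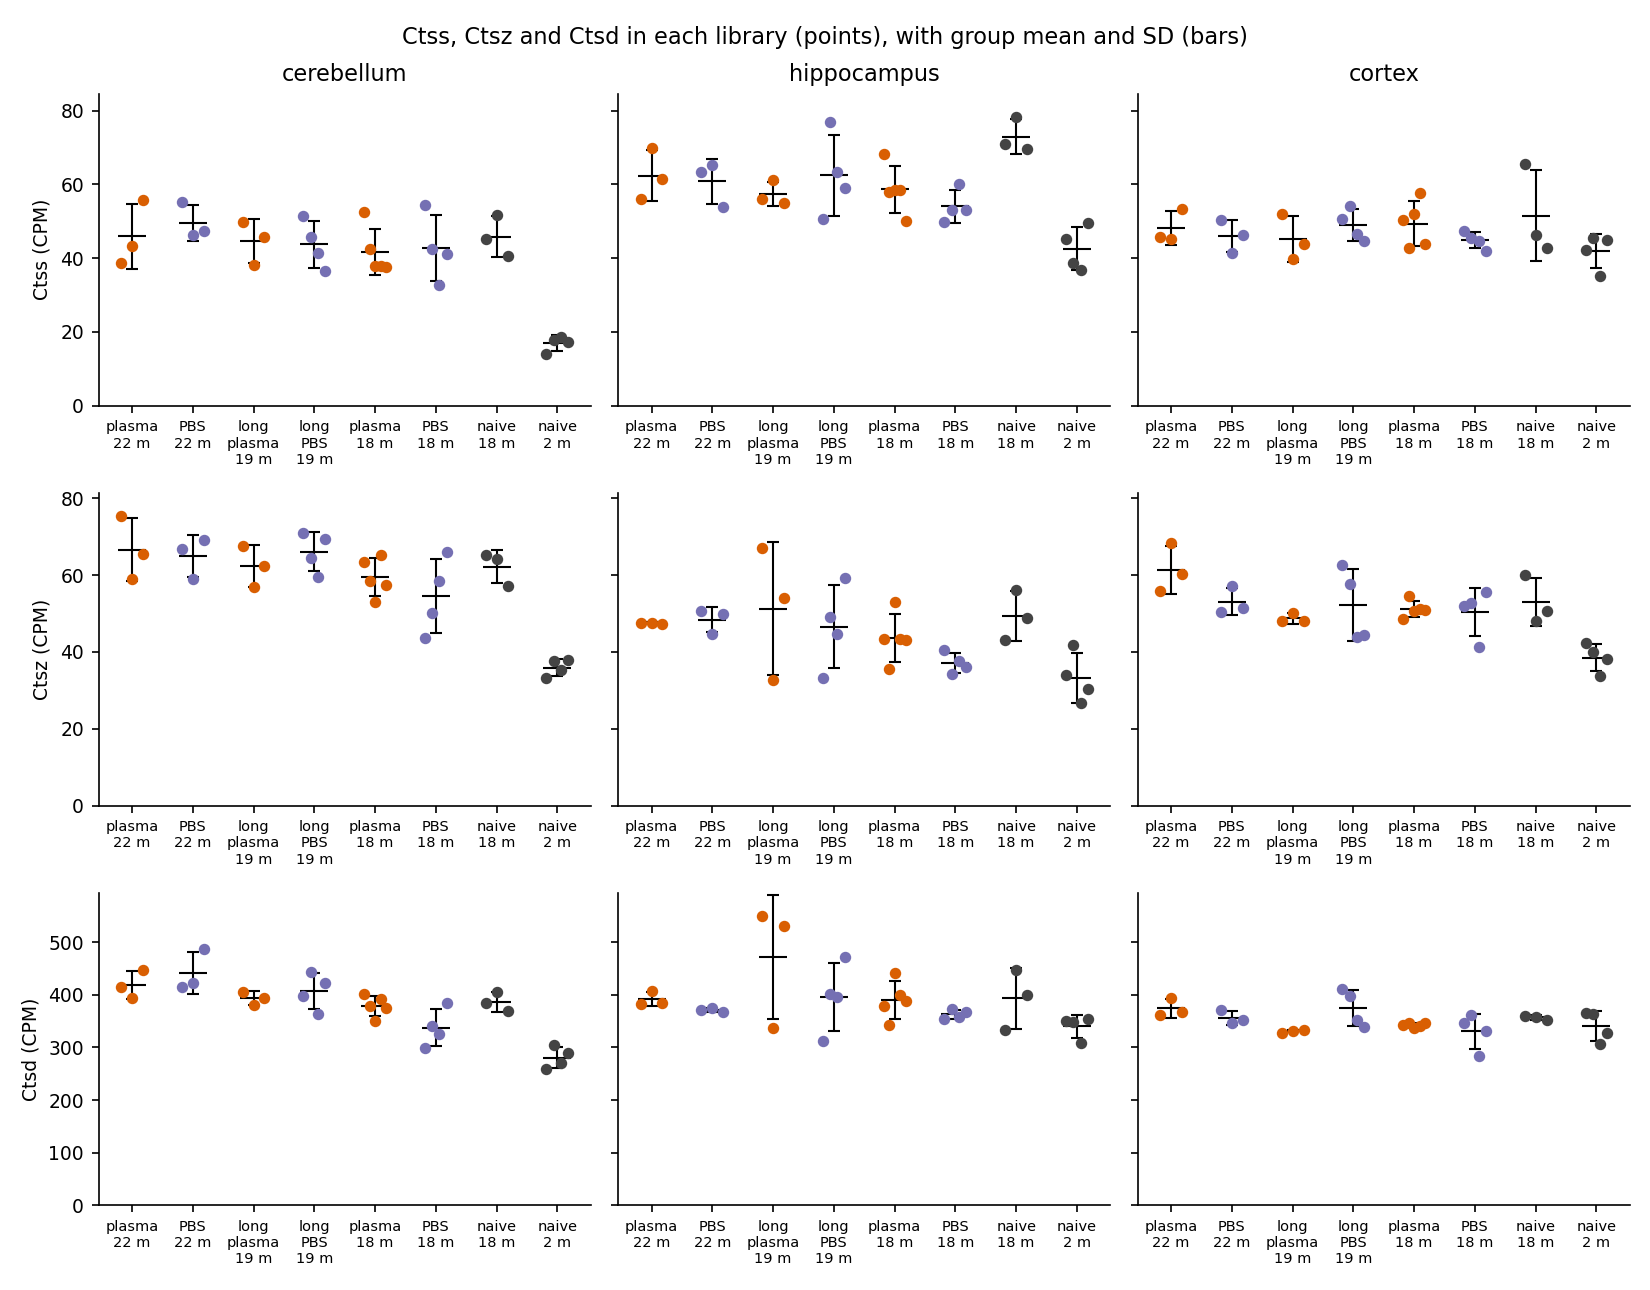
CPM of Ctss, Ctsz and Ctsd in each library of the first experiment, by region and group; points are libraries, and horizontal bars the group mean with its SD. The 4 naive 2-month cerebellum libraries have 14.0 to 18.7 CPM of Ctss, while the 25 cerebellum libraries of 18 months or more have 32.7 to 55.8.

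In the hippocampus, Ctss alone passed. It had 70.8, 78.3 and 69.5 CPM at 18 months (72.9 ± 4.75, SD, n = 3), against 45.1, 38.6, 36.9 and 49.6 CPM at 2 months (42.5 ± 5.86, SD, n = 4). The groups did not overlap, and the log2 fold change was 0.77 ± 0.13, or 1.71-fold (adjusted p = 0.00781). This 1 of 8 members stood beside 0.0719% of all genes that passed (0.0664% as higher), but the call was lost when the 7 naive libraries were fitted alone (log2 fold change 0.76, adjusted p = 0.267) and when any of 3 libraries was left out. Of the 2-month libraries, replicates 14 and 20 are among those with low markers of neurons of the labelled region. Ctsz had 43.0, 56.1 and 48.7 CPM at 18 months, against 34.0, 41.9, 26.6 and 30.3 CPM at 2 months. Its groups did not overlap, yet its log2 fold change of 0.52 ± 0.18 did not pass (adjusted p = 0.581). Ctsf also separated the groups, with a log2 fold change of 0.23 ± 0.09 (adjusted p = 0.644), so that 3 of 8 members did not overlap, against 6.31% of all genes. Ctsd had 333, 448 and 399 CPM at 18 months, against 350, 348, 308 and 354 CPM at 2 months, with overlap and a log2 fold change of 0.18 ± 0.12.

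In the cortex, 0 of 8 members passed in edgeR and in DESeq2, beside 0.112% of all genes in edgeR (0.0852% as higher and 0.0266% as lower), and 1 had an unadjusted p under 0.05, as did 6.18% of all genes. That was Ctsz, with 60.0, 48.0 and 50.8 CPM at 18 months, against 42.2, 40.0, 33.8 and 38.0 CPM at 2 months. It was the only member whose groups did not overlap, against 6.34% of all genes, and its log2 fold change was 0.40 ± 0.12 (adjusted p = 0.406, edgeR). Ctss had 65.5, 46.4 and 42.7 CPM at 18 months, against 42.3, 45.4, 35.2 and 44.9 CPM at 2 months. The highest library stood apart, the others overlapped, and the log2 fold change was 0.23 ± 0.12 (adjusted p = 0.862). That highest library, naive 18-month replicate 3, is also one of the 2 cortex libraries under 2500000 counts, with 1815609. Ctsh was on the lower side, with 11.0, 13.6 and 12.4 CPM at 18 months, against 15.2, 12.9, 14.2 and 15.2 CPM at 2 months (log2 fold change -0.18 ± 0.13, adjusted p = 0.932).

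**Figure D3:**
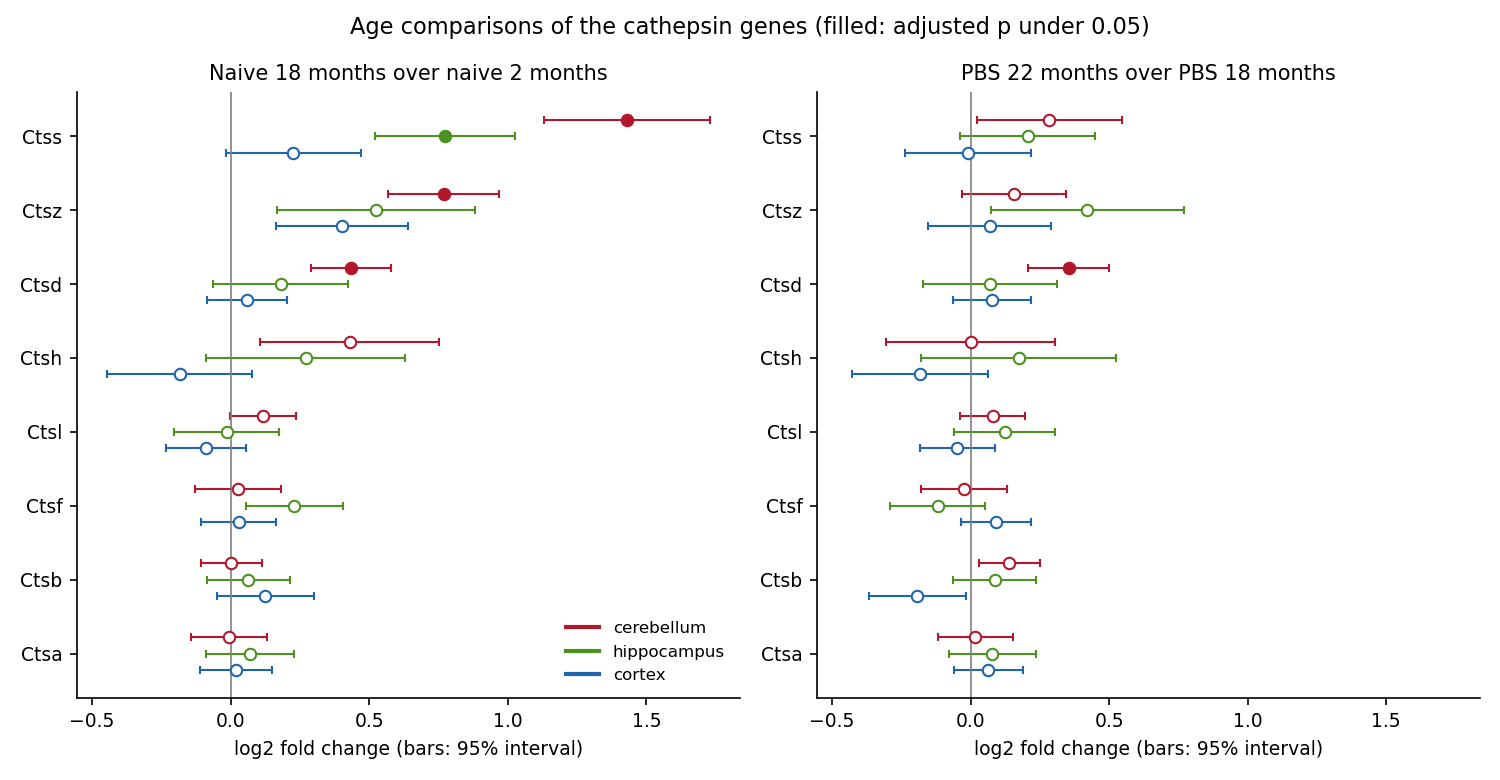
Log2 fold changes of the 8 cathepsins with age, naive 18 over 2 months (left) and PBS 22 over 18 months (right), by region; bars are 95% intervals and filled points pass an adjusted p of 0.05 in edgeR. Filled points are Ctss, Ctsz and Ctsd in the cerebellum and Ctss in the hippocampus on the left, and Ctsd in the cerebellum on the right.

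Whether the age difference itself differed between regions was tested as an interaction over 87 libraries. For Ctss, the log2 fold change in the cerebellum was above that in the cortex by 1.20 ± 0.21 (adjusted p = 0.00283). It was the 1 member to pass, beside 0.041% of all genes, and it had the smallest p of all genes in that test; without mouse 6 the difference was 1.01 with an adjusted p of 0.159. Ctsd (0.38 ± 0.13) and Ctsh (0.62 ± 0.24) did not pass, with adjusted p values of 0.621 and 0.714. Between hippocampus and cortex, 0 of 8 members passed in edgeR and in DESeq2, as did 0% of all genes in edgeR. There 2 members had an unadjusted p under 0.05, beside 4.56% of all genes (Ctss 0.56 ± 0.19, adjusted p = 1, and Ctsh 0.46 ± 0.23, adjusted p = 1). Between cerebellum and hippocampus 0 of 8 passed by either tool, beside 0.0513% of all genes in edgeR. Ctss, at 0.65 ± 0.20 (adjusted p = 0.375, edgeR), was the 1 member with an unadjusted p under 0.05, beside 8.65% of all genes.

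The injected mice were all 18 months or older, so each region held 25 libraries of older mice beside the 4 of 2 months. Their treatments differ, and the 4 young libraries are those of the comparison above, so the counts describe and are not a further test. Ctss lay above the highest young library in 25 of 25 libraries in the cerebellum and hippocampus (hippocampus: 49.7 to 78.3 CPM in older mice, against 36.9 to 49.6 CPM in young mice) and in 15 of 25 in the cortex. Ctsz did so in 25 of 25 cerebellum libraries (43.7 to 75.3, against 33.2 to 37.8 CPM), in 24 of 25 of cortex and in 18 of 25 of hippocampus. Ctsd did so in 24 of 25 cerebellum libraries, 21 of hippocampus and 5 of cortex. All older libraries lay above all young ones for 0.949% of genes in the cerebellum, 0.0996% in the hippocampus and 0.165% in the cortex. Ctsh in the cortex showed the opposite order, with 21 of 25 older libraries below the lowest young one (8.86 to 16.2, against 12.9 to 15.2 CPM).

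When the 8 group means of each member and region of the first experiment were put in order, 168 pairs of neighbours resulted, and the libraries of 6 pairs did not overlap, where 0.67% of such pairs over all genes tested did not. In 5 of the 24 orders, against 0.892% of those of all genes, the naive 2-month group was the lowest and stood apart from the next: Ctss in the cerebellum (41.7 CPM in plasma 18-month mice as the next, against 17.0) and hippocampus (54.0 in PBS 18-month mice, against 42.5), Ctsz in the cerebellum (54.6 in PBS 18-month mice, against 35.9) and cortex (48.7 in long plasma mice, against 38.5), and Ctsd in the hippocampus (363 in PBS 18-month mice, against 340). For Ctss in the hippocampus the margin was narrow, with 49.74 CPM in the lowest PBS 18-month library and 49.56 in the highest young one. It was also narrow for Ctsd in the hippocampus, with 354.31 CPM in the lowest PBS 18-month library and 354.07 in the highest young one. For Ctsd, groups of higher mean reached into the young range, down to 313 CPM in long PBS and 333 in naive 18-month mice. For Ctsz in the cortex, the lowest older library, at 41.2 CPM, lay below the highest young one, at 42.2. The remaining pair apart was Ctsd in the cortex, with a mean of 374 CPM in plasma 22-month mice, against 357 in naive 18-month mice as the next lower group. All other neighbours in these orders overlapped.

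A later age step was given by the PBS mice of 22 and 18 months. In the cerebellum Ctsd passed, with 416, 422 and 487 CPM at 22 months, against 299, 341, 326 and 384 CPM at 18 months. The groups did not overlap, and the log2 fold change was 0.35 ± 0.07, or 1.28-fold (adjusted p = 0.0474). It was the 1 member of 8 to pass, beside 0.157% of all genes (0.064% as higher and 0.0931% as lower), and the call was lost without any of 5 of the 7 libraries and without the library under 2500000 counts (0.32, adjusted p = 0.161). Ctsb (0.14 ± 0.06) and Ctsl (0.08 ± 0.06) also did not overlap and did not pass, which made 3 of 8 members against 15.1% of all genes. Ctss had 55.2, 46.2 and 47.3 CPM at 22 months, against 54.4, 42.4, 32.7 and 41.1 CPM at 18 months, with overlap and a log2 fold change of 0.28 ± 0.13 (adjusted p = 0.304).

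In the hippocampus and cortex 0 of 8 members passed between 22 and 18 months in edgeR and in DESeq2. Of all genes, 0% and 0.00533% passed in edgeR. In each of these regions 1 member had an unadjusted p under 0.05, beside 7.85% and 10.9% of all genes. In the hippocampus this was Ctsz, with 50.6, 44.6 and 49.8 CPM at 22 months, against 40.6, 34.2, 37.7 and 36.0 CPM at 18 months. It was the only member there whose groups did not overlap, against 10.4% of all genes, and its log2 fold change was 0.42 ± 0.18 (adjusted p = 0.581). In the cortex it was Ctsb, lower at 22 months by a log2 fold change of -0.19 ± 0.09 (adjusted p = 0.431), with overlap. Ctsa was the 1 cortex member without overlap (0.06 ± 0.06), against 9.49% of all genes.

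Marker genes of several cell types moved with age beside the cathepsins. In a piece of tissue, fewer cells of a type and less RNA per cell cannot be told apart. In the cerebellum, where 1.33% of all genes passed as higher, 12 of 14 homeostatic microglia markers were higher at 18 months. Of these 3 passed, among them Tmem119 (0.85 ± 0.21) and Cx3cr1 (0.70 ± 0.12). The summed level of the homeostatic markers was 229, 239 and 240 CPM at 18 months (lowest, median, highest), against 164, 167 and 179 CPM at 2 months, without overlap. Activated microglia markers were higher for 17 of 17, of which 8 passed, including Lyz2 (1.81 ± 0.32) and Lgals3 (1.60 ± 0.35), while their summed level overlapped (3491, 4294 and 4805 CPM at 18 months, against 2985, 3418 and 3676 CPM at 2 months). Most of that sum is Apoe and Fth1, with medians of 2151 and 1800 CPM over the cerebellum libraries. The next highest gene of the list, B2m, had 105, so the sum says little about the other markers. In the hippocampus the homeostatic sums were 559, 598 and 617 CPM at 18 months, against 471, 497 and 515 CPM at 2 months, and in the cortex 445, 476 and 496 CPM, against 457, 499 and 563 CPM. These sums did not overlap in the hippocampus and overlapped in the cortex. With the homeostatic marker score as a covariate, an alternative chosen after seeing the data, the cerebellar log2 fold changes were 1.17 for Ctss (adjusted p = 0.0497), 0.87 for Ctsz (0.0172) and 0.38 for Ctsd (0.254, no longer passing). In the hippocampus Ctss was at 0.53 (adjusted p = 0.425). In that fit 16 genes in all passed in the cerebellum, against 411 without it, and the score itself separates the ages.

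Choroid plexus is the tissue in the ventricles that makes cerebrospinal fluid. Its markers summed to 1766, 1849 and 2368 CPM in the 18-month cerebellum, against 163, 516 and 1905 CPM in the 2-month cerebellum (lowest, median, highest), where 1 young library reached the older range. With the choroid plexus score as a covariate the cerebellar calls stood, at 1.49 for Ctss, 0.71 for Ctsz and 0.35 for Ctsd (adjusted p = 0.00913). For PBS mice the sums in the cerebellum were 1848, 2132 and 2410 CPM at 22 months, against 167, 928 and 1983 CPM at 18 months, and the homeostatic microglia sums 257, 273 and 276 CPM, against 194, 212 and 233 CPM. The Ctsd call between these groups was lost with either score (0.30, adjusted p = 0.103, and 0.32, adjusted p = 0.431). Border macrophage markers summed to 9.17, 12.6 and 18.1 CPM in the 18-month cerebellum, against 10.7, 12.9 and 17.9 CPM in the 2-month cerebellum. Oligodendrocyte markers were lower in 10 of 10 cases at 18 months in the cerebellum and 6 passed as lower, beside 1.06% of all genes. Among the 6 were Ugt8a (-0.66 ± 0.13) and Cldn11 (-0.56 ± 0.10). The part of these cell types in the cathepsin results was not tested beyond the covariate fits.

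Other genes of the lysosome were counted by list. Of 28 tested lysosomal hydrolases besides the cathepsins, 18 were higher in the cerebellum at 18 months and 2 passed, among them Man2b1, an alpha-mannosidase (0.33 ± 0.09). Of 18 lysosomal membrane proteins, 11 were higher and 2 passed, Cd68 (1.38 ± 0.32) and Laptm5 (0.84 ± 0.14), both proteins of macrophages and microglia. Among 17 V-ATPase subunits 4 were higher, 0 passed as higher and 1 passed as lower (Atp6v1g2, -0.30 ± 0.05). At an unadjusted p under 0.05, in either direction, stood 8 of the 28 hydrolases, 5 of the 18 membrane proteins and 7 of the 17 V-ATPase subunits, beside 15% of all genes and 4 of the 8 cathepsins. Of 10 lysosomal sorting genes 4 were higher and of 9 TFEB family regulators 6, and 0 of either passed in edgeR or DESeq2, with 0 and 1 at an unadjusted p under 0.05. Of 5 partners and processing enzymes, 2 were higher, 0 passed by either tool and 0 had an unadjusted p under 0.05, with Psap, the saposin precursor, at -0.04 ± 0.06 and Grn, progranulin, at 0.14 ± 0.08. Of 5 cathepsin inhibitors tested, 3 were higher and 1 passed in edgeR, Cst7, cystatin F, which is also on the activated microglia list (2.40 ± 0.65, adjusted p = 0.0399; 0 of 5 passed in DESeq2 and 2 had an unadjusted p under 0.05 in edgeR), while Cst3 was at 0.28 ± 0.09 (adjusted p = 0.0940). Of the other cathepsins, 4 of 4 tested were higher, 0 passed by either tool and 1 had an unadjusted p under 0.05 in edgeR, Ctsc, which activates granule proteases (0.50 ± 0.16, adjusted p = 0.0995). Medians of these lists ran from -0.10 for the V-ATPase to 0.33 for the other cathepsins, against 0.27 for the 8 cathepsins and 0.01 over all genes. In the cortex 0 genes of these lists passed in edgeR or DESeq2, and of the 28 hydrolases 2 had an unadjusted p under 0.05.

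Injection itself was read from PBS and naive mice of 18 months. In edgeR and DESeq2 0 of 8 members passed in any region, as did 0% of all genes in edgeR. Members with an unadjusted p under 0.05 numbered 1 in the cerebellum, 2 in the hippocampus and 0 in the cortex, beside 3.32%, 3.54% and 3.63% of all genes. In the hippocampus 8 of 8 were on the lower side in PBS mice. Ctss had 49.7, 53.0, 60.2 and 53.1 CPM in PBS mice, against 70.8, 78.3 and 69.5 CPM in naive mice. These did not overlap, and the log2 fold change was -0.43 ± 0.13 (adjusted p = 1.00, edgeR). Ctsz had 40.6, 34.2, 37.7 and 36.0 CPM in PBS mice, against 43.0, 56.1 and 48.7 CPM in naive mice, also without overlap (-0.42 ± 0.18, adjusted p = 1). These 2 of 8 members stood against 6.94% of all genes that did not overlap. In the cerebellum Ctsd had 299, 341, 326 and 384 CPM in PBS mice, against 385, 406 and 369 CPM in naive mice, with overlap (-0.19 ± 0.07, adjusted p = 1, edgeR).

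The main question of the study, plasma against PBS, was put in 11 comparisons for the 8 members, 88 tests in all. In edgeR and in DESeq2 0 of them passed, 5 had an unadjusted p under 0.05 in edgeR, and the log2 fold changes lay between -0.46 and 0.29. Of all genes 0% passed in edgeR in each comparison within a region of the first experiment. At an unadjusted p under 0.05 stood 1 member in the cerebellum and 0 in the cortex and hippocampus at 18 months, beside 4.05%, 4.06% and 2.43% of all genes. The fit over both experiments had 1 such member, beside 9.56% of all genes, and the second experiment alone 0, beside 7.96%. That joint fit of the hippocampus uses the same mice as the 2 separate ones.

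At 18 months in the cerebellum 8 of 8 members were on the higher side in plasma mice, between 0.01 and 0.16. Ctsd had 401, 378, 350, 392 and 375 CPM in plasma mice, against 299, 341, 326 and 384 CPM in PBS mice, with overlap. Its log2 fold change was 0.16 ± 0.07 (adjusted p = 1.00, edgeR), and the 95% intervals of the 8 members ran from -0.24 to 0.33. Ctss had 52.4, 42.4, 37.9, 38.0 and 37.6 CPM in plasma mice, against 54.4, 42.4, 32.7 and 41.1 CPM in PBS mice, which overlapped throughout (0.05 ± 0.12). In the cortex 6 of 8 were on the higher side, and the intervals ran from -0.31 to 0.33. In both regions 0 of 8 members separated the groups, beside 1.32% of genes in the cerebellum and 1.48% in the cortex.

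In the hippocampus at 18 months the comparison was made in both experiments. Ctss had 68.1, 57.8, 58.6, 58.5 and 50.0 CPM in plasma mice of the first experiment, against 49.7, 53.0, 60.2 and 53.1 CPM in PBS mice. In the second experiment it had 54.5, 48.8, 53.1, 60.2 and 65.7 CPM in plasma mice, against 55.8, 52.8, 46.8 and 47.3 CPM in PBS mice. The groups overlapped each time, with log2 fold changes of 0.12 ± 0.11 and 0.20 ± 0.09 (adjusted p = 1 and 0.628, edgeR). With both experiments in a single fit Ctss was at 0.16 ± 0.06 (adjusted p = 0.427, edgeR), with a 95% interval of 0.03 to 0.28, and Ctsz at 0.15 ± 0.07 (adjusted p = 0.532). For all 8 members the intervals of that fit lay between -0.13 (Ctsf) and 0.34 (Ctsh), so changes above 0.34 or below -0.13 on the log2 scale lie outside them. Each interval was taken for a single gene, with no allowance for the 8 members, so larger changes are not excluded. The plasma difference passed as different between the experiments for 0 of 8 members in edgeR and in DESeq2, with 0 at an unadjusted p under 0.05. Of all genes 0% passed in that edgeR test and 3.1% had an unadjusted p under 0.05. Among the members Ctsz was the farthest (-0.23 ± 0.14, adjusted p = 1.00, edgeR). In the second experiment choroid plexus markers summed to 2026, 1667, 1878, 214 and 4439 CPM in plasma mice, against 269, 182, 4353 and 184 CPM in PBS mice. Their part in the result was not tested beyond fits with the choroid plexus score as a covariate.

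At 22 months 0 of 8 members passed in any region by either tool, and 0 had an unadjusted p under 0.05, beside 2.28% of all genes in cerebellum, 1.68% in hippocampus and 5.64% in cortex. Ctsh spread most, with 6.84, 15.1 and 16.8 CPM in plasma mice, against 14.2, 11.9 and 10.7 CPM in PBS mice in the cerebellum (0.29 ± 0.16), and 9.74, 12.5 and 12.0 CPM, against 13.6, 12.3 and 16.1 CPM in the hippocampus (-0.32 ± 0.18). The low cerebellum value came from 6 counts in a library of 877031. The groups of 1 member did not overlap in the cortex (Ctsa, -0.10 ± 0.07, against 10.3% of all genes) and of 1 in the hippocampus (Ctsd, 0.06 ± 0.13, against 8.01%), both by narrow margins.

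After 24 injections, the farthest value of all plasma comparisons was Ctsh in the cortex. It had 10.1, 8.86 and 10.8 CPM in long plasma mice, against 13.9, 16.2, 12.6 and 11.9 CPM in long PBS mice. The groups did not overlap, and the log2 fold change was -0.46 ± 0.13, with a 95% interval of -0.72 to -0.20, which did not pass over all genes (adjusted p = 1.00, edgeR). The second title number separates these groups completely, and its part cannot be told apart from that of the plasma. Ctsd in the cortex had 328, 331 and 333 CPM in long plasma mice, against 411, 397, 353 and 339 CPM in long PBS mice, also apart (-0.16 ± 0.07, adjusted p = 1). These 2 of 8 members stood against 6.89% of all genes. Ctsa was at -0.14 ± 0.06 with overlap. In the hippocampus Ctsd had 549, 336 and 531 CPM in long plasma mice, against 313, 402, 395 and 471 CPM in long PBS mice (0.24 ± 0.12, adjusted p = 1, edgeR), with overlap. At an unadjusted p under 0.05 stood 3 members in the cortex and 0 in the cerebellum and hippocampus, beside 3.52%, 6.67% and 3.91% of all genes. Differences of the plasma effect between regions at 18 months passed for 0 of 8 members in edgeR and in DESeq2, with 0 at an unadjusted p under 0.05 in all 3 pairs. Of all genes 0% passed in edgeR in each pair. At an unadjusted p under 0.05 stood 3.16% (cerebellum and cortex), 4.87% (hippocampus and cortex) and 4.33% (cerebellum and hippocampus) of them.

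**Figure D4:**
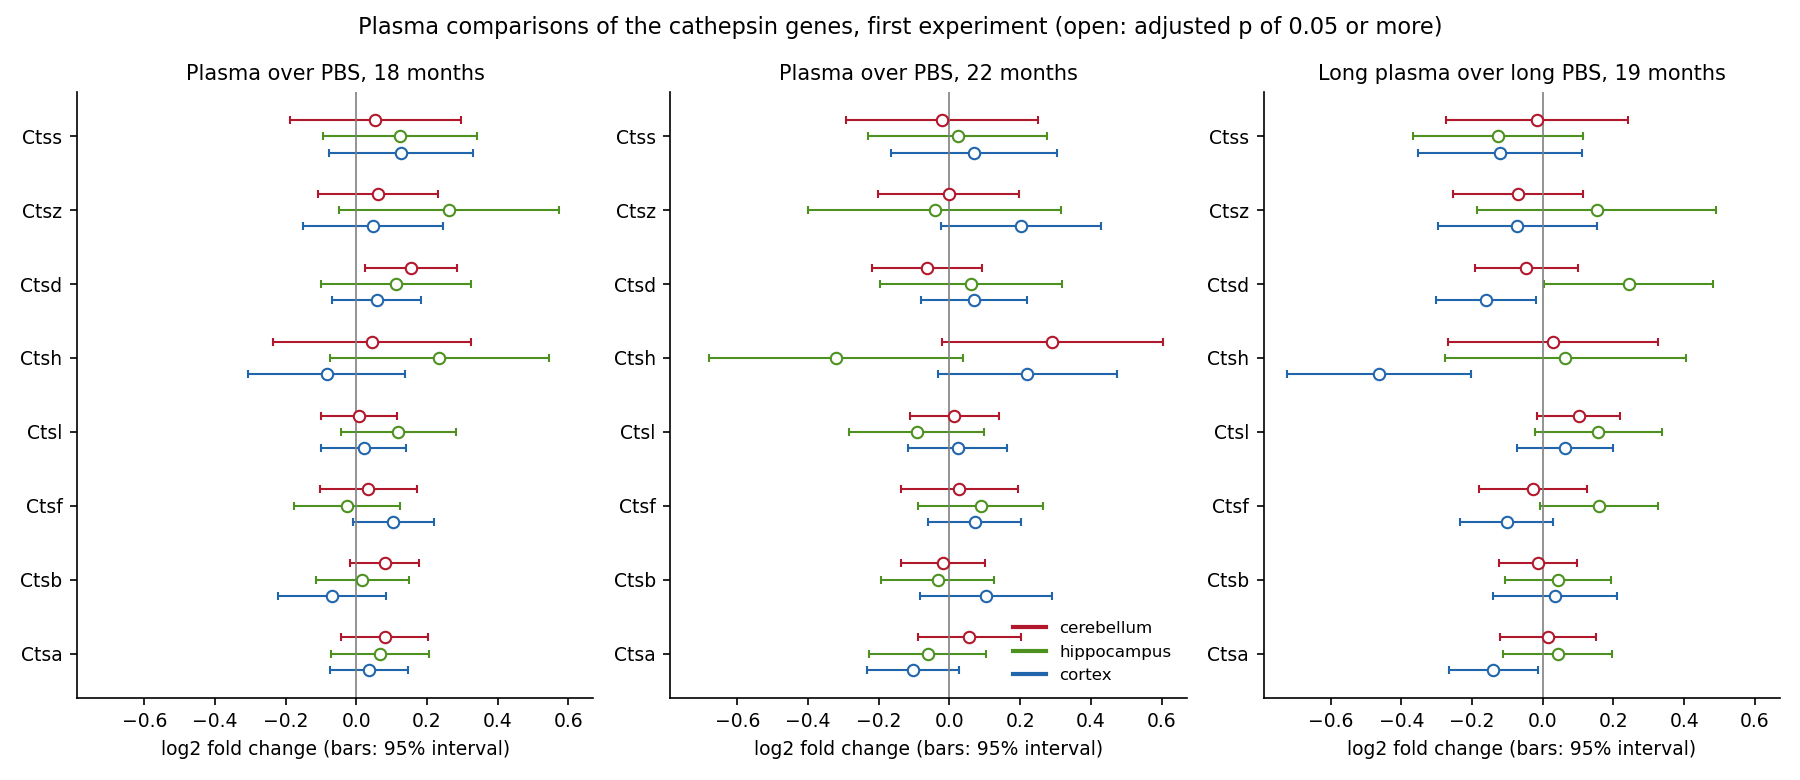
Log2 fold changes of the 8 cathepsins, plasma over PBS at 18 months (left) and 22 months (middle) and long plasma over long PBS at 19 months (right), by region, first experiment; bars are 95% intervals and all points are open because none passes an adjusted p of 0.05. Most intervals include 0, and Ctsh in the cortex after long plasma (-0.46) is the farthest from it.

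Across the libraries of a region the members did not vary as a single block. Correlations were taken over the 25 libraries of 18 months or more, which share region and differ in treatment, age and depth, and are given as a description. The median Pearson r of the 28 member pairs was 0.23 in the cerebellum, 0.30 in the hippocampus and 0.17 in the cortex. Ctsd and Ctsz formed the closest pair in each region, with r of 0.77, 0.83 and 0.72. Ctss and Ctsz had r of 0.06, 0.29 and 0.21 over these libraries; in the cerebellum r was 0.81 when the 4 young libraries were added, so that value rests on them. Ctss had r of 0.35, 0.66 and 0.62 with the homeostatic microglia marker score in cerebellum, hippocampus and cortex. Ctsb, Ctsf and Ctsa had r between -0.50 and 0.45 with that score in the 3 regions. In the cerebellum, Ctsd (0.52), Ctsh (0.46) and Ctsb (0.45) had a higher r with that score than Ctss. By Spearman's rank correlation over the same libraries, Ctsd had 0.47, Ctss 0.44, Ctsb 0.24 and Ctsh 0.16. Only Ctsd was then above Ctss, so the place of Ctsh and Ctsb depends on the measure. Ctsz, Ctsl, Ctsf and Ctsa had a lower r there. In the hippocampus and cortex, Ctss had the highest r of the members with that score. Other marker scores also varied with some members. With oligodendrocyte markers Ctsz had r of -0.05, 0.71 and 0.84, with astrocyte markers Ctsb had 0.73, 0.04 and -0.37 and Ctsd 0.59, 0.39 and 0.55, and with activated microglia markers Ctss had 0.62, 0.47 and 0.22 in the same order of regions. With choroid plexus markers Ctsd had r of 0.41, 0.76 and 0.01.

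The hippocampus held a group of libraries with much choroid plexus RNA. In 6 of 38 libraries the choroid plexus markers summed to more than 4000 CPM (7629 in long plasma replicate 23 and 4219 to 4439 in the others). These came from long plasma (2), plasma of the second experiment (1), plasma 18-month (1), PBS of the second experiment (1) and long PBS mice (1). In them Ctsd ran from 404 to 549 CPM with a median of 501, against 295 to 448 with a median of 356 in the other 32. Ctsl ran from 79.6 to 99.0 CPM, against 62.7 to 78.3, without overlap. Ctsa ran from 123 to 148 CPM, against 97.0 to 132, and Ctsz from 52.9 to 67.0, against 26.6 to 56.1. The split was made on these data and is given without a test. The 2 high Ctsd values among the 3 long plasma hippocampus libraries (549 and 531 CPM) are both in this set.

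**Figure D5:**
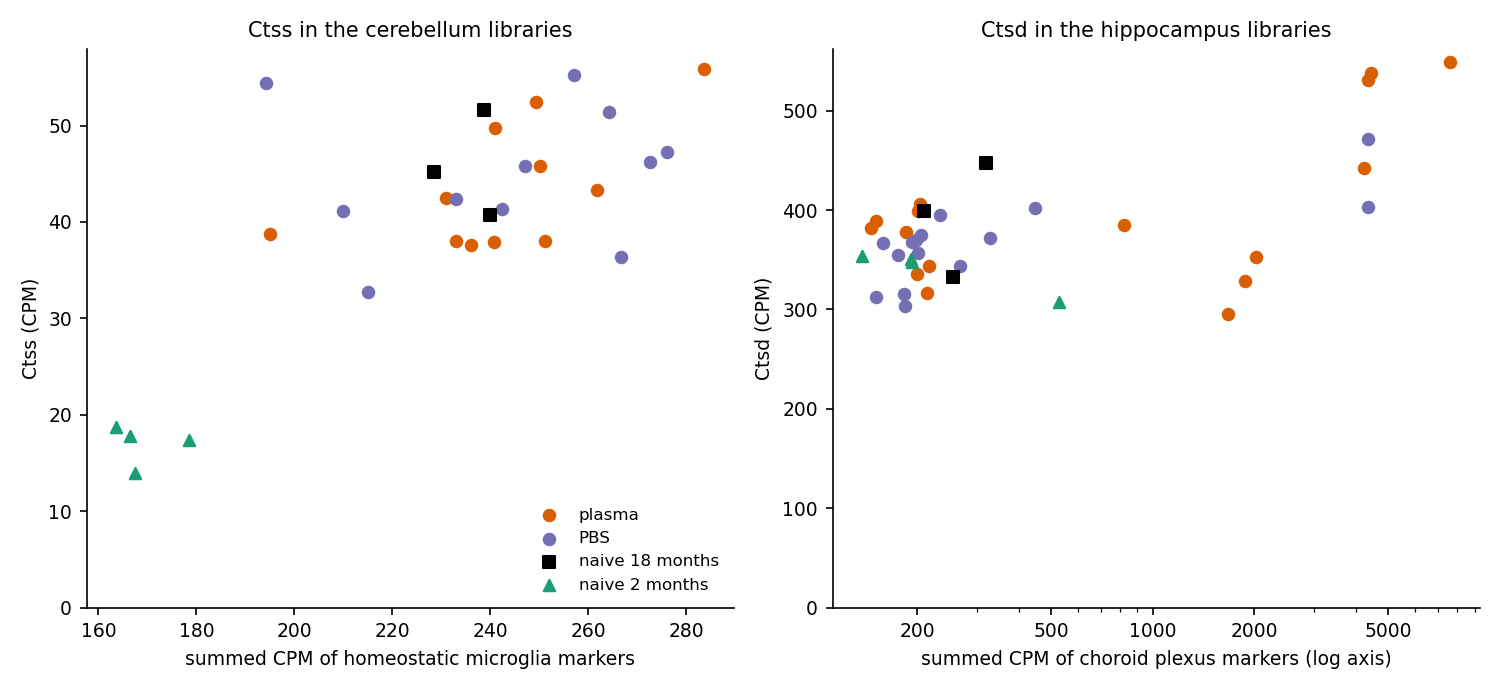
Left, Ctss against the summed homeostatic microglia markers in 29 cerebellum libraries; right, Ctsd against the summed choroid plexus markers (log axis) in 38 hippocampus libraries, all in CPM, with each point a library. The 4 naive 2-month libraries lie at the lower left on the left side, and the 6 libraries above 4000 CPM on the right side have 404 to 549 CPM of Ctsd.

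Genes whose pattern was most like each member were ranked by the mean of Pearson r over the 3 regions, with 29 libraries each and 10827 genes compared. For Ctss they included C1qb (0.82) and C1qa (0.75), chains of complement C1q. For Ctsz they were the class I histocompatibility genes H2-D1 (0.77) and H2-K1 (0.74) and the lysozyme gene Lyz2 (0.74). Ctsd was followed by Lgals3bp (0.66), Prelp (0.64) and Stra6 (0.63), and Ctsh by genes that included Arpc1b (0.60) and Olfml3 (0.55). Ctsb was closest to Pnkd (0.76), the mitochondrial Uqcrc1 (0.70) and the synaptic Cplx1 (0.70), Ctsl to Cab39l (0.58), Ginm1 (0.54) and Stk39 (0.54), Ctsf to Srebf1 (0.53), Aldh6a1 (0.46) and Ctc1 (0.46), and Ctsa to Mns1 (0.49), F11r (0.48) and Cd59a (0.47). Over the 25 older libraries alone the mean r was 0.66 for Ctss and C1qb and 0.60 for Ctsz and H2-D1, lower than with the young libraries, and 0.75 for Ctsb and Pnkd.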

How the data were processed

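Total RNA from homogenized tissue was purified on RNeasy columns; cDNA came from the Smart-Seq2 method and sequencing libraries from the Nextera XT kit, per the labels' protocols. This chemistry keeps no strand information. The submitters' processing notes list Trim Galore 0.3.7, STAR 2.5.3a, the build GRCm38 and DESeq2, without their settings. The counting tool and annotation are not given in the sources used here. The deposited values are raw counts, 1 row per symbol and 1 column per library. Depth was 851288 to 23768385 counts per library, PCR duplicates cannot be told apart, and with 3 to 5 mice per group small differences of low genes such as Ctsh carry wide intervals.

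Counts were analysed in R 4.3.3 with edgeR 4.0.16 and limma 3.58.1: TMM factors, filterByExpr (minimum count 10, minimum total 15), quasi-likelihood tests, 1 coefficient per group, Benjamini-Hochberg adjustment over all genes of a fit and a threshold of 0.05. Each region was fitted over its 29 libraries of the first experiment. The second experiment was fitted alone, and both with the experiment as a covariate; comparisons of regions used 87 libraries. The 95% interval is the log2 fold change ± 1.96 SE. CPM carry no prior count; log2 CPM for correlations used a prior count of 2. Coordinates and exon lengths came from GENCODE M21.

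Named genes were the 8 cathepsins, up to 2 genes per list and direction past the threshold with a mean of at least 5 CPM, and for each member the 3 genes of most similar pattern; Psap, Grn, Cst3, Cst7 and Ctsc are further list members named after their values were seen. Some genes that these rules name are not reported here. The members and lists were chosen with earlier results of these data known. Alternatives were DESeq2 1.42.0, RLE size factors, no low-count filter, the compared groups alone, leaving out libraries under 2500000 counts, libraries with own-region neuron markers more than 3 median absolute deviations low, the 3 18-month mice whose second title number plasma and PBS share, and each library or mouse in turn; at 22 months only mice of 1 second title number were kept, which leaves 1 PBS mouse, assumed to vary like the other groups. Choroid plexus and homeostatic microglia scores as covariates were added after seeing the data. The labels give libraries of a mouse in the 3 regions the same animal number, so the pairing comes from the design; the median correlation of their deviations from the group means was 0.0440 for cerebellum and cortex, 0.0829 for hippocampus and cortex and 0.0380 for cerebellum and hippocampus over 16500 genes. The fits were tested on simulated counts.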

Additional observations from a re-analysis of the deposited data

Results flagged for a closer look

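In groups of 4 or 5 libraries, 7 of 112 combinations of member and group had a single library far from the rest, a rate that chance gives to about 1 in 20 groups. Ctsl was at 90.3 CPM in cerebellum PBS 18-month replicate 2, with the other libraries at 103 to 105 CPM, and at 67.4 CPM in cortex PBS 18-month replicate 11, with the others at 73.1 to 74.2; both libraries held fewer than 2500000 counts. Ctsl was at 81.4 CPM in cortex plasma 18-month replicate 7, with the others at 70.4 to 73.1. Ctsa was at 126 CPM in cortex long PBS replicate 26, with the others at 109 to 111. Ctsd was at 308 CPM in hippocampus naive 2-month replicate 17, with the others at 348 to 354. In the second experiment, Ctsa was at 123 CPM in hippocampus PBS replicate 70, with the others at 100 to 103, and Ctsd was at 538 CPM in plasma replicate 76, with the others at 295 to 353; both libraries had choroid plexus marker sums above 4000 CPM. The age difference of Ctss differed between cerebellum and cortex by 1.20 on the log2 scale in the interaction test.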

How the results depend on the processing

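Of 30 comparisons, 23 had 0 members passing, and none of their 353 alternative counts was above 0. Of 433 alternative counts in all, 16 moved. The count for cerebellum PBS 22 against 18 months was 0 in place of 1 without libraries under 2500000 counts and with either marker score as a covariate, and 0 to 1 over the libraries left out in turn (lost without PBS 18-month replicates 2, 5 and 8 and PBS 22-month replicates 21 and 18, with Ctsd between 0.28 and 0.43). The count for naive hippocampus age was 0 with the compared groups alone and with the microglia score, and 0 to 1 over the libraries left out (lost without naive 18-month replicates 3 and 6 and 2-month replicate 14, with Ctss between 0.71 and 0.83). For young hippocampus minus cortex it was 0 to 1 (lost without mouse 17 or 20), and for the age difference of cerebellum minus cortex 0 to 1 (lost without mouse 6, with Ctss between 1.01 and 1.37). The cause was not tested. Of 182 alternatives for 18 single member results, 23 lost the call and 0 reversed; Ctsb between young cerebellum and hippocampus lost it with RLE size factors (0.14), with no low-count filter (0.16) and in DESeq2 (0.14). With the mouse as a replicate block, the counts were 5 for young cerebellum minus cortex, 1 for hippocampus minus cortex, 6 for cerebellum minus hippocampus and 1 for the age difference of cerebellum minus cortex, so no call count changed. Depth limits Ctsh most, with 6 counts in the library of 877031 counts.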
